A study of Mus musculus with 54 samples.

Results

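Mouse embryonic stem cells that carried the EZH2 variant A677T were compared with cells that carried added wild-type EZH2, both kept undifferentiated in 2i/LIF medium. The comparison takes 6 of the 54 samples of the series by their labels: 3 libraries of the line labelled A677T (EZH2-A677T added to an Ezh2 heterozygote) and 3 of the line labelled WT (EZH2-WT added to the same Ezh2 heterozygote). Both lines therefore keep 1 floxed Ezh2 allele beside 1 deleted allele (Ezh2fl/∆) and differ in their labels by the added EZH2. Messenger RNA was selected by poly(A) tail and sequenced, and reads were counted per gene. Of 55401 genes in the table, 15830 had enough reads to be tested. The heterozygote without added EZH2 (het), the parental line, the lines with R679C, K634E, K563E and A733T, and the A677T and WT lines after retinoic acid are used where they place a result. The labels do not say how the added EZH2 was delivered, or whether a line is 1 clone. Each form of EZH2 has 1 line label, so the variant cannot be told apart from other differences between the lines.

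EZH2 is the methyltransferase within Polycomb repressive complex 2 (PRC2). The complex places methyl groups on lysine 27 of histone H3, a mark that helps keep developmental regulators silent. A second complex, PRC1, contains CBX proteins that bind this mark. Heterozygous EZH2 variants cause Weaver syndrome, a disorder with overgrowth, and the series asks whether such variants act against the wild-type protein.

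The A677T libraries held 16762859, 21631792 and 16144503 counts, and the WT libraries held 20806815, 21556963 and 18835311. Libraries of the same line were not copies of each other: the chi-square over its degrees of freedom was 9 to 36.7 for pairs of A677T libraries and 4.53 to 5.69 for pairs of WT libraries. A677T replicate 3 stood apart. It lay at -46.2 on the second principal component of the undifferentiated libraries, where the other A677T libraries lay at -9.23 and 1.56 and the WT libraries at 13 to 24.9. Its mitochondrial genes took 2.7% of counts, against 2.05% and 1.67% in A677T replicates 1 and 2 and 1.48% to 1.81% in WT. In other variant lines this share was 2.34% to 2.59% (K634E), 1.99% to 2.09% (R679C), 1.93% to 2.15% (K563E) and 1.8% to 2.01% (A733T). Of 11 mitochondrially encoded genes tested, 6 were called higher in A677T (54.5%, beside 22.4% of all genes) and 0 lower. Without replicate 3 these counts became 2 (18.2%, beside 14.5%) and 0. After the GC correction described next they became 0 and 1 (9.09%, beside 19.6%).

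GC-rich transcripts were counted less and GC-poor transcripts more in A677T than in WT. Genes were ranked by transcript GC content and cut into 10 groups of equal size. In the group with the lowest GC content, the median log2 level relative to the WT mean was 0.35, 0.20 and 0.68 in A677T replicates 1, 2 and 3, against -0.10 to 0.07 in the WT libraries. In the group with the highest GC content it was -0.27, -0.13 and -0.62 in A677T, against -0.05 to 0.08 in WT. Across 10416 genes the log2 fold change correlated with GC content at -0.64 (Spearman, a description over genes, which are not replicates), and at -0.50 without replicate 3. What part this trend has in the results was not tested. The tests were repeated without replicate 3 and with each library's GC trend removed ("GC-corrected", correlation 0.02), and a gene's values from these are given where the call was lost or the difference moved by over 1.5 times.

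**Figure D1:**
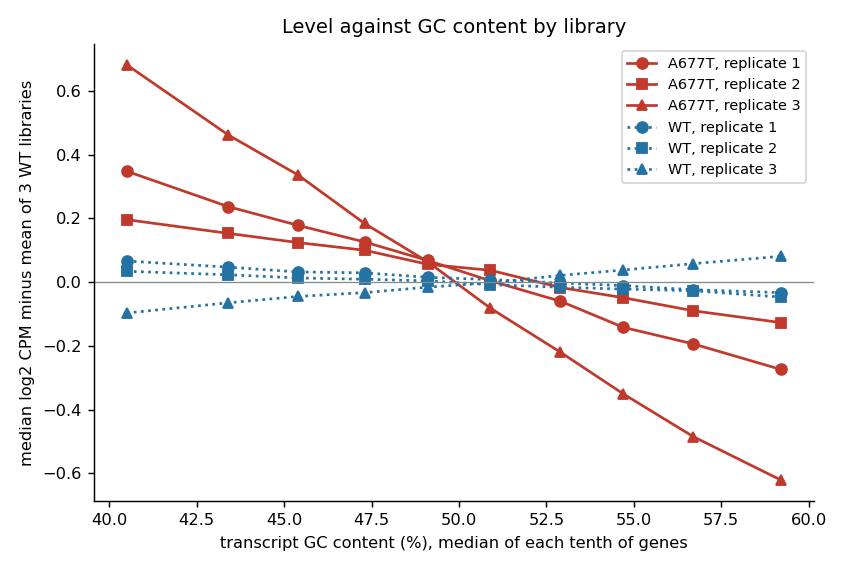
Median log2 CPM minus the mean of the 3 WT libraries (vertical axis) in 10 equal groups of genes by transcript GC content (horizontal axis, %), 1 line per library, A677T solid and WT dotted. All 3 A677T lines slope downward, and that of replicate 3 runs from 0.68 at the low end to -0.62 at the high end.

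At an adjusted p under 0.05 (edgeR quasi-likelihood test, Benjamini-Hochberg over all genes tested), 3553 genes were higher in A677T (22.4% of those tested) and 3508 were lower (22.2%). Without replicate 3, 2360 of 16220 were higher (14.5%) and 2886 lower (17.8%), and with the GC correction 2821 were higher (17.8%) and 3102 lower (19.6%). Differences below are on the log2 scale, A677T minus WT, unless another scale is named, and adjusted p-values come from this test. With at least a 2-fold change required as well, 312 genes were higher (1.97%) and 1120 were lower (7.08%). At that size, 154 were higher (0.949%) and 989 lower (6.1%) without replicate 3, and 189 were higher (1.19%) and 872 lower (5.51%) with the GC correction. In all 3 settings, 96 genes were at least 2-fold higher and 729 at least 2-fold lower. A fall in these bulk samples can mean fewer cells with the transcript or less of it per cell, which cannot be told apart.

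The 2-fold decreases lay mostly among genes of low level. Levels are given as CPM, counts scaled to library size with TMM factors, which compares libraries and not genes of different length. With genes cut into 5 equal groups by mean CPM of the 6 libraries, the lowest group (up to 1.07 CPM) held 15.4% that fell and 3.92% that rose by that factor. The highest group (74 CPM and above) held 0.126% that fell and 0.158% that rose by it. Median transcript GC content was 43.4% for the genes at least 2-fold higher, 55.2% for those at least 2-fold lower and 50.3% for all genes tested. Of the genes at least 2-fold higher, 56.1% were protein-coding, against 91.3% of those at least 2-fold lower and 83.8% of all tested.

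**Figure D2:**
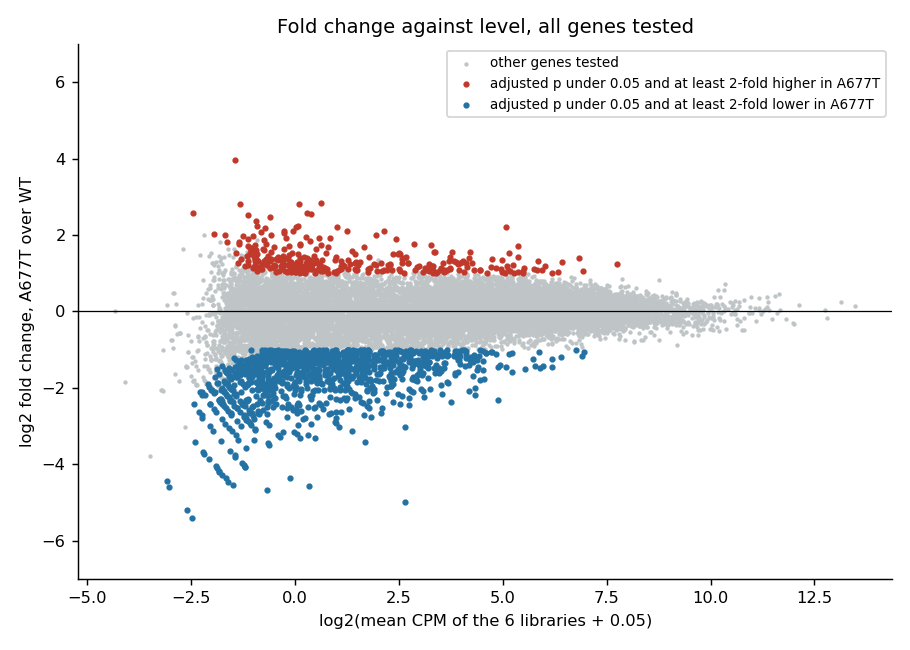
Log2 fold change of A677T over WT (vertical axis) against the log2 mean level of the 6 libraries (horizontal axis) for 15830 genes. The 312 genes at least 2-fold higher are red and the 1120 at least 2-fold lower are blue, and few of either lie in the right-hand part of the plot.

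Ezh2 transcripts were more numerous in A677T than in WT. Ezh2 (chromosome 6, 47530139 to 47595341, GRCm38) had 534, 511 and 610 CPM in the A677T libraries, against 444, 424 and 396 CPM in the WT libraries. The groups did not overlap, and both exceeded the het mean of 269 CPM. The log2 difference was 0.39 (SE 0.067, adjusted p = 4.46e-05), 0.28 without replicate 3 (adjusted p = 0.00123), 0.13 with the GC correction (adjusted p = 0.0283) and 0.12 with both (adjusted p = 0.0895), where the call was lost. The sources used here do not say if the count for Ezh2 includes transcripts of the added EZH2, so this check of the lines is partial, and counts per gene do not show the variant itself.

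The other core PRC2 subunits did not pass the test. Suz12, which PRC2 needs for stability, differed by 0.09 (adjusted p = 0.56), Eed, which reads the methylated histone, by 0.10 (adjusted p = 0.166), Ezh1, the related methyltransferase, by -0.10 (adjusted p = 0.333), and the histone-binding subunits Rbbp4 and Rbbp7 by 0.00 and 0.06. The direction for these subunits other than Ezh1 depended on the scaling, since with the GC correction Suz12 (-0.32, adjusted p = 1.7e-06), Eed (-0.11, adjusted p = 0.0402), Rbbp4 (-0.22) and Rbbp7 (-0.15) were called lower. Suz12 was at 398 CPM in A677T replicate 3 and at 288 and 263 CPM in replicates 1 and 2, against 279 to 314 CPM in WT.

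Of 8 accessory PRC2 genes tested, 4 were higher (50%, beside 22.4% of all genes) and 2 lower (25%, beside 22.2%). Aebp2, a cofactor of the JARID2-containing form of PRC2, had 167, 161 and 198 CPM in A677T, against 114, 107 and 108 CPM in WT, a difference of 0.68 (SE 0.072, adjusted p = 4.06e-08) that was 0.43 with the GC correction. Jarid2 itself was higher by 0.24 (adjusted p = 0.000458). Phf19 and Phf1, alternative Polycomb-like subunits, were lower, at -1.03 (adjusted p = 0.000135) and -0.76 (adjusted p = 0.00152, -0.41 with the GC correction), while the third, Mtf2, stood at 0.02 (adjusted p = 0.897) and at -0.34 with the GC correction, a call. Lcorl rose by 0.79, or by 0.51 without replicate 3 (adjusted p = 0.0216), a call that the GC correction removed (0.24, adjusted p = 0.0578). Lcor rose by 0.25, a call lost with the GC correction (-0.10, adjusted p = 0.541) and without replicate 3 (adjusted p = 0.0695). Epop, an elongin-binding subunit, stood at -0.15 (adjusted p = 0.488) and was called higher with the GC correction, at 0.45.

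Of 24 PRC1 genes tested, 7 were higher and 5 lower, shares of 29.2% and 20.8% beside 22.4% and 22.2% of all genes. Cbx2, a reader of methylated lysine 27, had 17.7, 19.6 and 13.1 CPM in A677T, against 38.1, 33.4 and 35.4 CPM in WT. Its libraries did not overlap, and the difference was -1.07 (SE 0.119, adjusted p = 7.1e-08). Cbx7, the main reader in stem cells, was lower, at -0.47 (adjusted p = 0.000171) and at -0.18 with the GC correction. Rnf2, the ubiquitin ligase of PRC1, was higher by 0.58 (adjusted p = 8.29e-05), a value of 0.37 without replicate 3 and 0.19 with the GC correction. Of 18 trithorax genes and lysine 27 demethylases, 5 were higher (27.8%) and 4 lower (22.2%), near the shares of all genes, among them Kmt2c, a methyltransferase of lysine 4, at 0.61 (adjusted p = 0.000392) and the demethylase Kdm6b at -0.42 (adjusted p = 0.000154), a call lost with the GC correction (-0.07, adjusted p = 0.393).

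Among the 32 gene lists counted, the genes of the integrated stress response had the highest share lower in A677T, except with the GC correction and without replicate 3 together, where 72.4% of them and 75% of 8 fibroblast genes were lower. In this response, kinases that sense amino acid shortage, unfolded protein or other stress slow translation, which raises the transcription factor ATF4, and ATF4 then switches on genes of amino acid synthesis, amino acid import and tRNA charging. Of 29 members tested, 26 were lower and 0 higher, 89.7% beside the 22.2% of all genes that were lower, and the median log2 change was -0.71 beside -0.01. Without replicate 3 the counts were again 26 (89.7%, beside 17.8% of all genes) and 0. With the GC correction they were 22 lower (75.9%, beside 19.6%) and 1 higher (3.45%, beside 17.8%). The libraries of A677T lay wholly below those of WT for 27 of the 29 members, beside 25.2% of all genes, and wholly above for 0, beside 24%.

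Chac1, which degrades glutathione and is a target of ATF4, lies on chromosome 2 from 119351229 to 119354381. It had 5.32, 4.58 and 4.18 CPM in A677T, against 15.1, 17 and 21.7 CPM in WT. Every A677T library was below every WT library, and the log2 difference was -1.93 (SE 0.159, adjusted p = 4.62e-10). Vldlr, a lipoprotein receptor, had 1.03, 1.51 and 1.19 CPM in A677T, against 4.62, 5.89 and 5.36 CPM in WT, a difference of -2.07 (SE 0.192, adjusted p = 4.16e-09). Stc2, a secreted glycoprotein, was lower, at -1.77 (adjusted p = 6.48e-08) and the transcription factor Atf3 by -1.60 (adjusted p = 1.54e-05). All 4 kept a difference of at least 2-fold in both other settings.

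Regulators and enzymes of the response differed by less. Atf4 had 403, 411 and 401 CPM in A677T, against 474, 477 and 488 CPM in WT, a difference of -0.24 (SE 0.053, adjusted p = 0.000569) that was -0.02 with the GC correction (adjusted p = 0.804). The factor Ddit3 was lower, at -0.66 (adjusted p = 1.31e-05) and the pseudokinase Trib3, which restrains ATF4, at -0.99 (adjusted p = 3.88e-08, -0.63 with the GC correction). Asns, which makes asparagine, had 665, 671 and 715 CPM in A677T, against 964, 983 and 944 CPM in WT. Its groups were well apart, at -0.50 (SE 0.053, adjusted p = 4.87e-08). In serine and one-carbon synthesis, Shmt2 (-0.77), Phgdh (-0.40), Psat1 (-0.29), Mthfd2 (-0.24) and Psph (-0.20) were all called lower, with Shmt2 at -0.46 and Phgdh at -0.16 after the GC correction and the call for Psph lost (adjusted p = 0.2). The amino acid transporters Slc7a3 (-0.33), Slc7a5 (-0.31) and Slc3a2 (-0.29) were lower too. With the GC correction Slc7a5 and Slc3a2 were not called (adjusted p = 0.592 and 0.139). Cth, an enzyme of cysteine synthesis, and Pck2, the mitochondrial phosphoenolpyruvate carboxykinase, fell by 0.78 and 0.92 on the log2 scale.

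The members that did not pass were the transporter Slc7a11 (-1.18, adjusted p = 0.17, at under 0.4 CPM in all 6 libraries), the glycyl-tRNA synthetase Gars (-0.07, adjusted p = 0.252, called with the GC correction at -0.16) and the stress-induced Sesn2 (-0.08, adjusted p = 0.394). Sesn2 was called higher with the GC correction, at 0.26. Of 15 genes that respond to handling of cells, which include Atf3, Junb, Fosb and Zfp36, 7 were lower (46.7%, beside 22.2% of all genes) and 3 higher (20%, beside 22.4%). With the GC correction 5 were lower (33.3%, beside 19.6%) and 3 higher (20%, beside 17.8%). The part of these genes in the stress-response result was not tested.

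**Figure D3:**
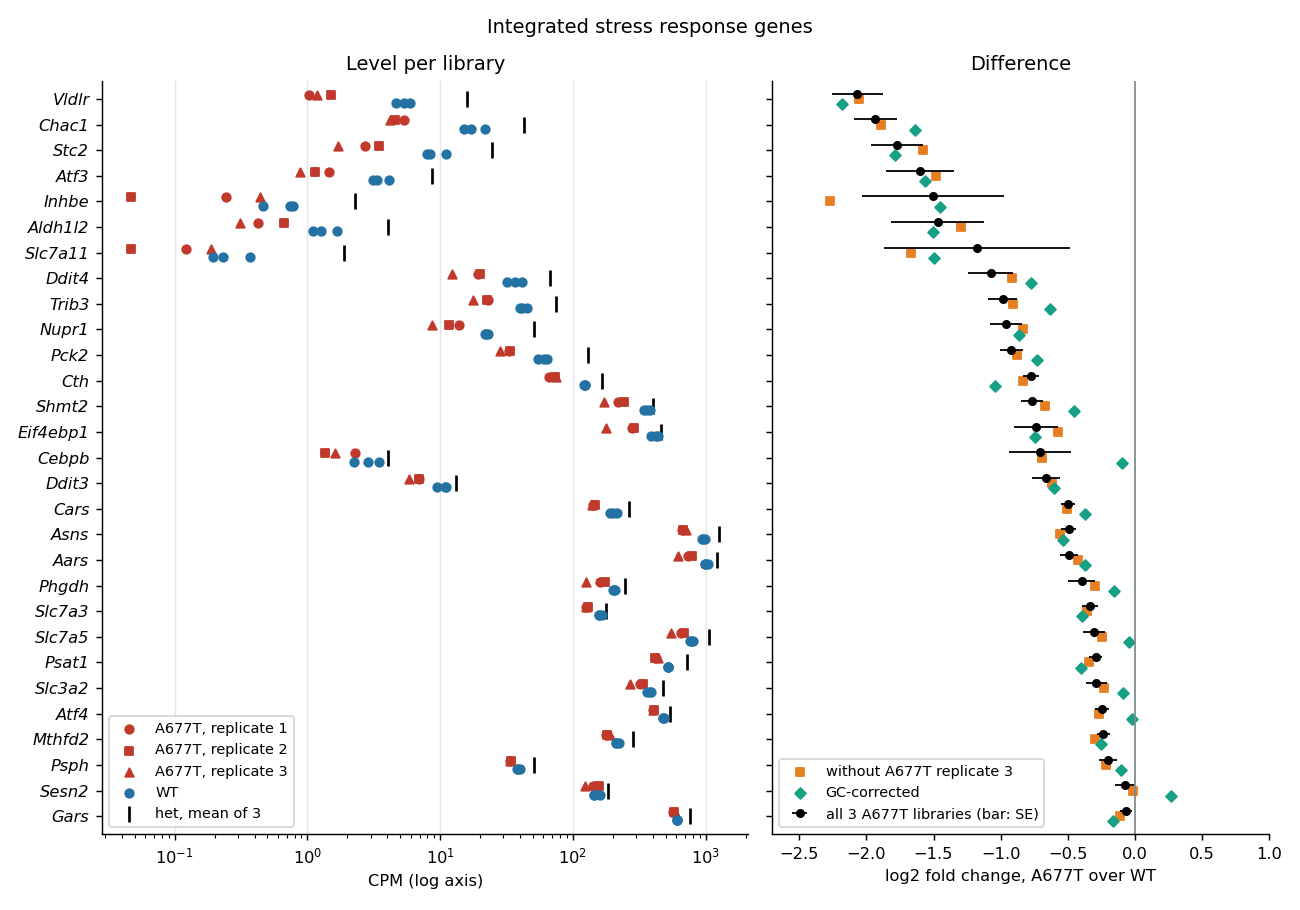
Levels per library (left, CPM on a log axis; A677T red, WT blue, mean of het as a black bar) and log2 fold changes of A677T over WT (right; black with SE, orange without A677T replicate 3, green GC-corrected) for the 29 stress response genes tested. The A677T points lie left of the WT points for 27 genes, and the het bar lies right of both.

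Promoters are shown here because members of the response share an element that ATF4 with a C/EBP partner is known to bind. RefSeq promoters (GRCm38.p6, 250 bases before to 50 after a gene's start) were at hand for 23 of the 29 members. The letters TGATGNAA, read on either strand (TTNCATCA on the other), were found in 11 of the 23 (47.8%), and in 293 of 10935 tested genes with a promoter (2.68%). The 11 members with the letters had a median log2 change of -0.99 and 9 were lower, and the 12 without had a median of -0.35 and 11 were lower. Among genes at least 2-fold lower, 26 of 790 (3.29%) held the letters. A match in letters is a description and not a mapped site. Each line gives 30 bases on the gene's own strand, 5′ to 3′, with the match in capitals. Not all 11 members with the letters are shown. Slc7a11 and Gars, which also held them, were not called and are left out.
Chac1, chr2:119351038-119351067, plus strand: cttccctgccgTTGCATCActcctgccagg
Vldlr, chr19:27216809-27216838, plus strand: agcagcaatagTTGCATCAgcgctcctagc
Atf3, chr1:191183425-191183454, minus strand: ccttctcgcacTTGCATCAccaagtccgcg
Inhbe, chr10:127352011-127352040, minus strand: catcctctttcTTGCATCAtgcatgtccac
Nupr1, chr7:126625562-126625591, minus strand: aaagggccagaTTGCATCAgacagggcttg
Pck2, chr14:55540152-55540181, plus strand: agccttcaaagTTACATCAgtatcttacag
Trib3, chr2:152344028-152344057, minus strand: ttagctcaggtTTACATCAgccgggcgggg
Asns, chr6:7693214-7693243, minus strand: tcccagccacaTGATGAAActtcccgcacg
In Asns the letters run in the direction of transcription, and in the other genes shown they run against it.

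The 250 bases before the start of Chac1 and of Atf3 are given whole, since both genes were at least 2-fold lower in A677T in every setting. The capitals again mark the match, which begins 193 bases before the start of Chac1 and 110 bases before that of Atf3.
Chac1, chr2:119350992-119351241, plus strand: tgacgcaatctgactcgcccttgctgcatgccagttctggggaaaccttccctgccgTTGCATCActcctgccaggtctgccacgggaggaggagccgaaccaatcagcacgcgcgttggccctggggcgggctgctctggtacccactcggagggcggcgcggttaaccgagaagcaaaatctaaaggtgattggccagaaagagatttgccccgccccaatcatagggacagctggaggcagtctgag
Atf3, chr1:191183334-191183583, minus strand: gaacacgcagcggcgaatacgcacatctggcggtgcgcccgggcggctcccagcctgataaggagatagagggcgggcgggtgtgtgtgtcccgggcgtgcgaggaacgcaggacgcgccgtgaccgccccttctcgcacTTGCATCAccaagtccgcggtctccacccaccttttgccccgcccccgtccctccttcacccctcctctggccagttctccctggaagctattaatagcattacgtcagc

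Against the heterozygote, the stress response genes were lower still. All 29 members were called lower in A677T than in het, beside 23.4% of all genes, and the median log2 change was -0.91. All 3 A677T libraries lay below all 3 het libraries for 29 of 29 members (26.3% of all genes), and so did all 3 WT libraries (18% of all genes). Chac1 averaged 4.70 CPM in A677T, 18 CPM in WT, 43.2 CPM in het and 44.4 CPM in the parental line. Among the other variants it averaged 3.93 CPM in R679C, 2.94 in K563E, 12.4 in K634E and 30.4 in A733T. Against the mean of R679C, K634E and K563E, 5 members were lower in A677T and 2 higher (7.26% and 8% of all genes), with a median of -0.05. The comparisons with het, with WT and with these variants share the A677T libraries.

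The genes with the largest increases, named by rule, were mostly of low level in both lines. Klhl13, a substrate adaptor of a ubiquitin ligase on the X chromosome (23219271 to 23365082), was the exception. It had 53.7, 50.7 and 61.8 CPM in A677T, against 12.6, 11.1 and 12 CPM in WT. The groups were far apart, at 2.21 (SE 0.116, adjusted p = 1.02e-13), and the gene also exceeded the mean of the 3 other Weaver variants by 1.93 (adjusted p = 9.72e-15). In WT it was below every het and parental library (means of 19.75 and 29.12 CPM), so WT too stood away from those lines. Against het, the difference for A677T was 1.49 (adjusted p = 2.65e-11). Selenop, a secreted selenium carrier, had 6.17, 5.85 and 6.43 CPM in A677T, against 1.61, 1.93 and 0.999 CPM in WT, a difference of 2 (SE 0.203, adjusted p = 1.77e-08).

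The other genes with the largest increases averaged under 4 CPM in A677T. The zinc-finger genes Zfp951 and Zfp934 rose by 2.83 and 2.10, and since both belong to families of near-identical copies, their counts are uncertain. Itga1, a collagen receptor subunit, had 1.45, 1.37 and 2.12 CPM in A677T, against 0.341, 0.414 and 0.263 CPM in WT, a difference of 2.24 (adjusted p = 3.57e-05). Wnt8a, a signalling ligand of the epiblast on chromosome 18, rose by 1.92 (adjusted p = 0.00471). The remainder were Prrg1 (2.58), Cyyr1 (2.56), the homeobox gene Rhox5 (2.21), the heparan sulfate sulfotransferase Hs6st2 (2.10), the phosphatase receptor Ptprz1 (1.93) and the iron oxidase Heph (1.77). Of the 12, 10 lay above every het and parental library. The share of all genes so placed was not counted, and the rule had chosen the 12 for a large rise over WT. For Zfp951 and Rhox5 the A677T libraries overlapped the het and parental libraries. Zfp951 averaged 2.61 CPM in A677T, against 3.38 CPM in the parental line. Among the 12, Prrg1, Klhl13, Rhox5, Hs6st2 and Heph are on the X chromosome. By at least 2-fold, 30 of 535 X-linked genes tested were higher (5.61%) and 33 lower (6.17%), beside 1.97% and 7.08% of all genes. The X-linked genes higher by that factor numbered 17 without replicate 3 (3.18%, beside 0.949%) and 15 with the GC correction (2.8%, beside 1.19%).

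Foxd1, a forkhead transcription factor of kidney and retina development, had the largest decrease. It lies on chromosome 13 from 98354242 to 98359305. It had 0.424, 0.425 and 0.25 CPM in A677T, against 13.1, 10.5 and 12.6 CPM in WT, a difference of -4.99 (SE 0.234, adjusted p = 2.79e-14). In WT it was above every het and parental library (means of 1.62 and 1.87 CPM), so WT and not A677T alone stood away from those lines. Vwf, the clotting factor of endothelium, had 0.363, 0.755 and 0.437 CPM in A677T, against 5.45, 6.03 and 5.99 CPM in WT, at -3.42 (SE 0.232, adjusted p = 1.43e-11), and WT was itself below het (11.8 CPM).

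Ace, the angiotensin-converting enzyme, had 5 counts in the A677T libraries together and 145 in the WT libraries, at -4.57 (adjusted p = 1.16e-08). Msln, a surface glycoprotein, fell by 4.37, the complement inhibitor Cd59a by 3.49, the matrix protein Fndc1 by 3.33 and the collagen chain Col5a3 by 3.32 on the log2 scale. The calcium sensor Hpcal4 (-3.45), Rassf4 (-3.30), the non-coding RNA Mir142hg (-3.25) and the meiotic cochaperone Fkbp6 (-3.23) completed the list with Hoxc4. For 11 of the 12 genes the A677T libraries lay below every het and parental library, and for 10 of the 12 the WT libraries overlapped those. The A677T libraries lay below the het libraries alone for 26.3% of all genes. The share below both was not counted, and the rule had chosen the 12 for a large fall from WT.

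**Figure D4:**
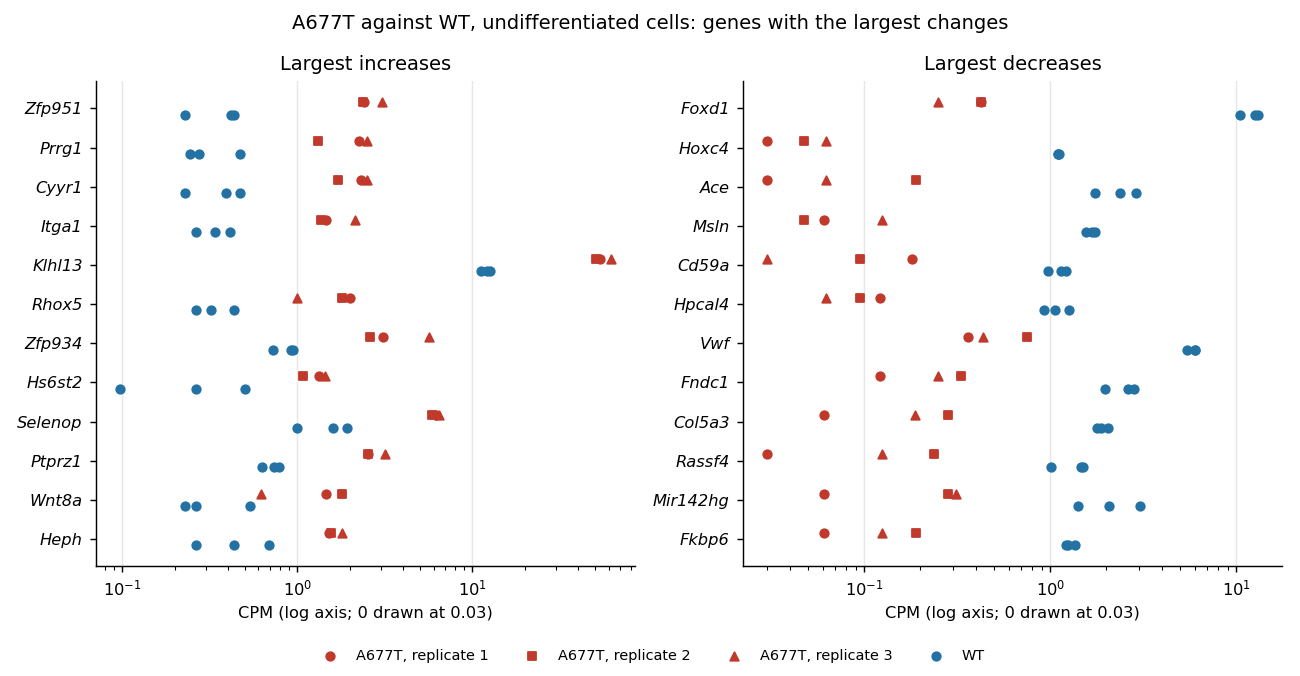
Levels per library (CPM, log axis, 0 drawn at 0.03) of the 12 genes with the largest increases (left) and decreases (right), A677T in red above WT in blue, with A677T replicate 3 as a triangle. Non-overlap of the groups was part of the rule that chose them, and the triangle lies with the other A677T libraries for most genes.

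Developmental regulators that are classical Polycomb targets were called lower more often than higher in every setting counted. Of 137 genes on this list 51 were tested, and 21 were lower (41.2%, beside 22.2% of all genes) and 7 higher (13.7%, beside 22.4%). By at least 2-fold, 15 were lower and 2 higher, beside 7.08% and 1.97% of all genes. These counts were 12 and 2 without replicate 3 (beside 6.1% and 0.949%) and 11 and 2 with the GC correction (beside 5.51% and 1.19%). A gene could pass the filter through the line in which it is high, so the counts do not describe all 137. After Foxd1, the lowest were the homeobox genes Vax2, with 0.545, 0.613 and 0.375 CPM in A677T, against 4.04, 4.42 and 5.36 CPM in WT (-3.13, adjusted p = 5.42e-09), and Tlx2 (-2.68, adjusted p = 5.15e-07). The brain regulators En2 and Nkx6-2 fell by 1.81 and 1.66 on the log2 scale. Tbx20, a heart regulator, fell by 1.80.

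The regulators that were higher included Meis2, a homeobox cofactor of HOX proteins, which had 2.24, 2.08 and 3.43 CPM in A677T, against 0.828, 0.782 and 0.736 CPM in WT (1.70, adjusted p = 6.33e-05). The value in A677T was lower than the mean of R679C, K634E and K563E, at -1.11 (adjusted p = 0.000272). Isl1 was counted 12 times in A677T and 2 times in WT, a ratio per total count of 6.73 (95% exact interval 1.5 to 61.9, counting error only), and its call was lost with the GC correction (adjusted p = 0.0607). Eomes, Gbx2, Olig1, Olig2 and Pou4f2 rose by 0.37 to 0.44, Pou4f2 not without replicate 3 (adjusted p = 0.0515). With the GC correction Olig1 stood at 0.85, Olig2 at 0.71, Eomes at 0.69 and Gbx2 at 0.67. Of 39 Hox genes 9 were tested, and 4 were lower (44.4%, beside 22.2% of all genes) and 0 higher (5 did not pass). A Hox gene too could pass the filter through the line in which it is high, so the counts do not describe all 39. The 4 were Hoxc4, Hoxc10, Hoxc12 and Hoxc13, all in the HoxC cluster on chromosome 15. Hoxc13 had a mean of 1.16 CPM in A677T and 3.13 CPM in WT (-1.43, adjusted p = 1.16e-05). Hoxc4 had 2 counts in A677T and 68 in WT, a ratio per total count of 0.033 (95% exact interval 0.00392 to 0.124), and Hoxc10 had 1 and 26 (0.0432, 0.00105 to 0.263). Hoxc4 averaged 0.461 CPM in R679C, 0.424 CPM in K634E and 0.11 CPM in K563E, against 1.11 CPM in WT.

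Of 13 core pluripotency genes tested, 3 were higher (23.1%, beside 22.4% of all genes) and 2 lower (15.4%, beside 22.2%). The GC correction gave 4 of each (30.8%, beside 17.8% higher and 19.6% lower). Pou5f1 had 806, 865 and 646 CPM in A677T, against 897, 870 and 922 CPM in WT (-0.21, adjusted p = 0.0742), Nanog differed by -0.04 (adjusted p = 0.603, called at -0.22 with the GC correction) and Sox2 by 0.13 (adjusted p = 0.156). The RNA-binding protein Lin28b was higher, with 58.6, 57 and 76.9 CPM in A677T, against 32.2, 33.1 and 32.9 CPM in WT (0.97, SE 0.097, adjusted p = 1.52e-08, 0.57 with the GC correction). L1td1, an RNA-binding protein of stem cells, rose by 0.24, or 0.15 with that correction. Dppa2, a chromatin factor, rose by 0.35 with replicate 3, stood at 0.12 without it (adjusted p = 0.313), and at -0.05 with the GC correction as well. Dppa5a, an RNA-binding marker of stem cells, fell by 0.40, and Zfp42, a zinc-finger marker, by 0.15 (adjusted p = 0.0496), a call lost without replicate 3 (adjusted p = 0.132) and -0.31 with the GC correction.

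Of 29 genes of the naive state tested, 14 were lower (48.3%, beside 22.2% of all genes) and 6 higher (20.7%, beside 22.4%). With the GC correction the counts were nearly even, at 9 lower (31%, beside 19.6%) and 8 higher (27.6%, beside 17.8%). Sox15, a SOX factor, had 4.23, 5 and 2.25 CPM in A677T, against 12.1, 11.6 and 12.8 CPM in WT (-1.64, SE 0.188, adjusted p = 1.45e-07). The factors Tfcp2l1 (-0.37), Prdm14 (-0.36), Esrrb (-0.28) and Klf5 (-0.26), the adhesion molecule Pecam1 (-0.49), the lysosomal mannosidase Manba (-0.74) and the LIF feedback inhibitor Socs3 (-0.47) were lower too, Esrrb and Socs3 not with the GC correction (adjusted p = 0.682 and 0.242). Nr5a2, a nuclear receptor that can drive Pou5f1, was higher, with 131, 126 and 147 CPM in A677T, against 86.5, 83.8 and 73.4 CPM in WT (0.73, adjusted p = 4.28e-09). The LIF receptor Lifr, Gbx2, Dusp6, Fgf17 and Mylpf rose by 0.36 to 0.44, Lifr by 0.25 and Fgf17 by 0.71 with the GC correction, where Klf5 was at -0.41. Stat3 (-0.14) and Tbx3 (-0.20) were called lower, though not with the GC correction, and Stat3 also not without replicate 3 (adjusted p = 0.0519). Klf4 and Klf2 stood at 0.00 and -0.13 and were not called, but were called higher with the GC correction, at 0.31 and 0.33.

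Formative and primed epiblast genes split. Of 29 tested, 9 were higher (31%, beside 22.4% of all genes) and 10 lower (34.5%, beside 22.2%). After the GC correction 11 were higher (37.9%, beside 17.8%) and 7 lower (24.1%, beside 19.6%). Foxp1, a forkhead factor, had 82.3, 72 and 93.7 CPM in A677T, against 34.3, 36.8 and 28.8 CPM in WT (1.31, SE 0.097, adjusted p = 6.42e-11). The transcription factors Sox4 (0.88), Zic5 (0.85), Zic2 (0.65) and Sox11 (0.40) and the DNA methyltransferases Dnmt3a (0.44) and Dnmt3b (0.19) rose with it, Sox11 by 0.24, Zic2 by 0.997 and Dnmt3b by 0.32 after the GC correction. In the other direction, the tight-junction protein Cldn6 had 4.36, 4.62 and 3.56 CPM in A677T, against 20.1, 17.9 and 18.8 CPM in WT (-2.17, SE 0.117, adjusted p = 1.73e-13). The activin antagonist Fst (-1.29), the POU factor Pou3f1 (-1.29) and the Nodal antagonists Lefty1 (-0.62) and Lefty2 (-0.53) were lower as well, with Pou3f1 at -0.79 and Lefty1 at -0.24 after the GC correction. Fgf5, the usual epiblast marker, was at 0.0605 to 0.187 CPM in A677T and at 0.276 to 0.631 CPM in WT and did not pass (adjusted p = 0.0969).

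**Figure D5:**
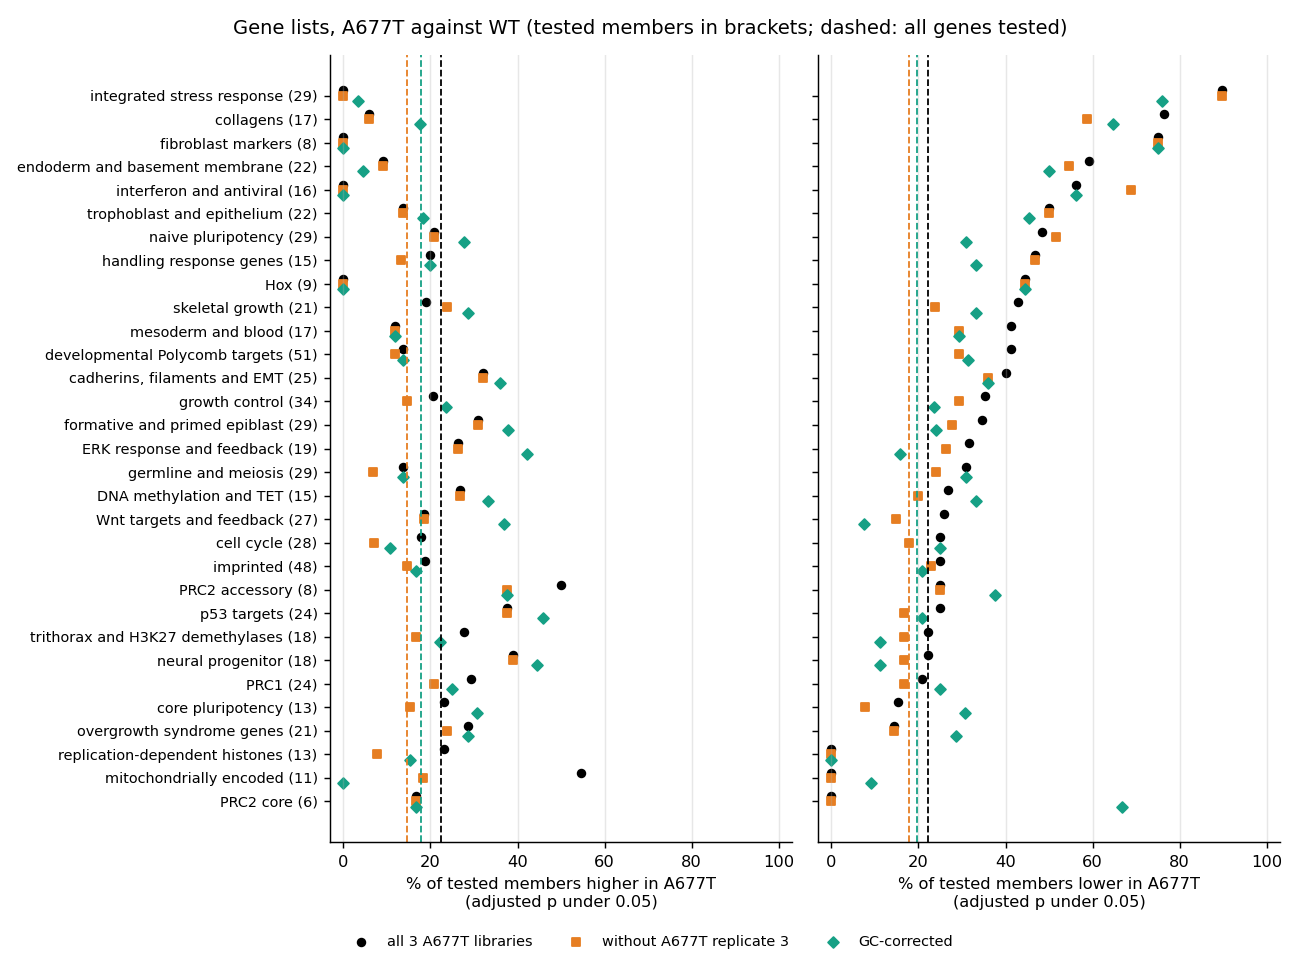
Percentage of each list's tested members (number in brackets) higher (left) or lower (right) in A677T at an adjusted p under 0.05, for all 3 A677T libraries, without replicate 3 and GC-corrected; dashed lines give the same share of all genes tested. The stress response list lies farthest to the right among lower genes, at 89.7%.

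Of 17 collagen genes tested among 35, 13 were lower (76.5%, beside 22.2% of all genes) and 1 higher (5.88%, beside 22.4%). Here too a gene could pass the filter through the line in which it is high, so the counts do not describe all 35. By at least 2-fold, 9 were lower and 1 higher, beside 7.08% and 1.97% of all genes. At any size, 10 were lower (58.8%, beside 17.8%) and 1 higher (5.88%, beside 14.5%) without replicate 3. With the GC correction 11 were lower (64.7%, beside 19.6%) and 3 higher (17.6%, beside 17.8%). The basement membrane chain Col4a1 had 9.38, 11.8 and 8.12 CPM in A677T, against 34.5, 32.7 and 35 CPM in WT (-1.79, SE 0.14, adjusted p = 2.37e-10), and its partner Col4a2, the next gene on chromosome 8, fell by 2.28 on the log2 scale. The laminin chain Lama1 had 54, 52.8 and 46.1 CPM in A677T, against 109, 123 and 118 CPM in WT (-1.20, SE 0.08, adjusted p = 1.11e-11). Other laminin chains and nidogens fell by less, Lamb1 by 0.78, Lamc1 by 0.28, Nid1 by 0.60 and Nid2 by 0.36, the call for Nid2 being lost with the GC correction (adjusted p = 0.0502). Col5a2 was the collagen that rose, to 0.862 CPM in A677T, against 0.311 CPM in WT (1.45, adjusted p = 0.00693).

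Markers of other cell types summed to less than the stem cell markers in both lines. The 8 fibroblast markers summed to 1.69 to 3.02 CPM in A677T and 5.78 to 7.22 CPM in WT, and 3 of 3 tested were lower (Col1a1, Thy1 and Pdgfrb). Col1a2, Col3a1, Lum and Dcn had at most 3 counts in either line and Postn had 0. The 5 primitive endoderm markers summed to 4.81 to 5.36 CPM in A677T and 3.5 to 4.67 CPM in WT, and of 3 tested 1 was higher and 0 lower. The part of fibroblast or endoderm cells in the collagen and laminin results was not tested. The 4 neural markers summed to 8.73 to 9.76 CPM in A677T and 15.5 to 17.3 CPM in WT, of which most in WT was Nes. Of 3 neural markers tested, 0 were higher and 1 lower. The 5 trophoblast markers summed to 104 to 124 CPM in A677T and 80.4 to 85.2 CPM in WT, nearly all from Eomes and Tfap2c, which stem cells also express. Of 3 trophoblast markers tested, 2 were higher and 0 lower. The 4 mesoderm markers, Eomes again among them, summed to 57 to 68.7 CPM in A677T and 45.6 to 49.7 CPM in WT. Of 3 mesoderm markers tested, 1 was higher and 1 lower. The 8 stem cell markers summed to 4141 to 4866 CPM in A677T and 5121 to 5281 CPM in WT. All 8 were tested, and 3 were lower and 0 higher. The marker counts of each cell type stand beside 22.4% of all genes higher and 22.2% lower. The 4 markers of 2-cell-like cells had at most 2 counts in either line.

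Adhesion and cytoskeletal genes moved in both directions. Of 25 genes of cadherins, filaments and epithelial-mesenchymal change, 8 were higher (32%, beside 22.4% of all genes) and 10 lower (40%, beside 22.2%). Vim, the intermediate filament of mesenchymal cells, had 291, 305 and 312 CPM in A677T, against 136, 122 and 126 CPM in WT (1.24, SE 0.065, adjusted p = 1.02e-13). The gap junction protein Gja1 had 170, 151 and 172 CPM in A677T, against 72, 60.9 and 55.6 CPM in WT (1.39, adjusted p = 3.26e-12). Zeb1, a repressor of epithelial genes, rose by 1.23, the integrin chains Itgb1 and Itgav by 0.66 (0.42 with the GC correction) and 0.64, and Nefl and Map2, cytoskeletal proteins of neurons, by 1.55 each. Cdh1, the epithelial cadherin, had 526, 537 and 473 CPM in A677T, against 777, 765 and 665 CPM in WT (-0.52, adjusted p = 2.99e-06), and Cdh3, the placental cadherin, fell by 1.62. Fn1, fibronectin, fell by 0.48, and the keratins Krt8, Krt18 and Krt19 by 0.77 (-0.50 with the GC correction), 0.88 and 1.88. Of 22 trophoblast and epithelial genes, 11 were lower (50%, beside 22.2% of all genes) and 3 higher (13.6%, beside 22.4%), and the claudins Cldn3, Cldn4 (-0.50, and -0.24 with the GC correction) and Cldn7 and the splicing factor Esrp1 were among those lower.

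Growth regulators and imprinted genes included genes with small spread between libraries. Igf2bp2, which binds the mRNA of the growth factor Igf2, had 40.1, 35.1 and 40.6 CPM in A677T, against 104, 110 and 105 CPM in WT (-1.46, SE 0.063, adjusted p = 6.89e-15). It was also lower than the mean of the 3 other Weaver variants, at -0.98 (adjusted p = 8.5e-13). Grb10, an imprinted inhibitor of insulin and IGF receptors, had 30.2, 29.4 and 34.7 CPM in A677T, against 89.5, 92.4 and 83.2 CPM in WT (-1.49, SE 0.071, adjusted p = 2.79e-14). Phlda2, an imprinted gene that restrains placental growth, had 7.62, 6.37 and 7.74 CPM in A677T, against 32.6, 31.3 and 34 CPM in WT (-2.18, SE 0.11, adjusted p = 8.54e-14). Its neighbour Slc22a18, in the same imprinted domain of chromosome 7, fell by 2.79. Neither group overlapped the other for any of the 4.

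In the growth control list, 12 of 34 members were lower (35.3%, beside 22.2% of all genes) and 7 higher (20.6%, beside 22.4%). After the GC correction there were 8 each (23.5%, beside 19.6% lower and 17.8% higher). Hmga2, a chromatin protein linked to body size, had a mean of 4.24 ± 0.676 CPM in A677T and 10.4 ± 0.349 CPM in WT (SD, n = 3 each), at -1.30 (adjusted p = 3.44e-08). The IGF-binding proteins Igfbp4 and Igfbp5 fell by 2.54 and 2.33. Irs2, an insulin receptor adaptor, rose by 0.94 and Mycn by 0.69. Of 48 imprinted genes tested, 12 were lower (25%) and 9 higher (18.8%), close to the shares of all genes. Peg10, a retroelement-derived placental gene, had 102, 104 and 114 CPM in A677T, against 54.3, 54.5 and 49.4 CPM in WT (1.02, SE 0.077, adjusted p = 1.1e-10), and Mest rose by 0.58. Among 21 overgrowth syndrome genes, 6 were higher (28.6%, beside 22.4% of all genes) and 3 lower (14.3%, beside 22.2%). After the GC correction there were 6 each (28.6%, beside 17.8% higher and 19.6% lower). The 3 lower before that correction were Nfix (-1.75), Pdgfrb (-1.31) and Cdkn1c (-0.80). Cdkn1c is an imprinted inhibitor of the cell cycle, and its call was lost with the GC correction (adjusted p = 0.242).

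H2-D1, which encodes a class I histocompatibility antigen, had 3.57, 3.63 and 2.44 CPM in A677T, against 14.1, 14.1 and 12.9 CPM in WT (-2.08, SE 0.135, adjusted p = 6.85e-12), and H2-K1, of the same class, fell by 1.59 on the log2 scale. Both belong to a class of similar genes, and reads may be split between them in ways that the sources used here do not give. Of 16 interferon and antiviral genes, 9 were lower and 0 higher (56.2% beside 22.2%), among them the transcription factor Irf1 (-0.53) and the membrane proteins Ifitm1, Ifitm2 and Ifitm3 (-0.29, -0.49 and -0.53), with Ifitm2 at -0.30 after the GC correction. Of 24 p53 targets, 9 were higher (37.5%, beside 22.4% of all genes) and 6 lower (25%, beside 22.2%). The apoptosis gene Pmaip1 was at 1.20 and the kinase Plk2 at 0.97. Of 28 cell cycle genes, 5 were higher (17.9%, beside 22.4%) and 7 lower (25%, beside 22.2%). The largest differences were Ccne2 at 0.64 and E2f1 at -0.38. Ccne2 was at 0.40 without replicate 3 (adjusted p = 0.00581). With the GC correction Ccne2 was at 0.10 (adjusted p = 0.282) and E2f1 at -0.06 (adjusted p = 0.38). Uhrf1, which guides maintenance DNA methylation, was lower, at -0.53 (adjusted p = 8.25e-07).

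The remaining lists are given by their counts, to be read beside the 22.4% of all genes that were higher and the 22.2% that were lower. With the GC correction these 2 shares were 17.8% and 19.6%. Of 21 genes of skeletal growth, 9 were lower (42.9%) and 4 higher (19%), against 7 lower and 6 higher after the GC correction. Among them were Fgfr3, a receptor that restrains bone growth, at -2.06 (adjusted p = 4.78e-06), Chrd, which binds bone morphogenetic proteins, at -1.63 (adjusted p = 1.33e-06), and Bmp4, one of those proteins, at 0.78 (adjusted p = 5.1e-07). Of 18 neural progenitor genes, 7 were higher (38.9%) and 4 lower (22.2%), and of 17 mesoderm and blood genes, 2 were higher (11.8%) and 7 lower (41.2%). Of 27 Wnt targets and feedback genes, 5 were higher and 7 lower, which became 10 and 2 with the GC correction. The receptor Ror1 was at 1.75 (adjusted p = 1.92e-05) and the ligand Wnt3a at -1.87 (adjusted p = 1.62e-05). Of 19 ERK response genes, 5 were higher (26.3%) and 6 lower (31.6%), which became 8 and 3 with the GC correction. Germline genes gave 4 higher (13.8%) and 9 lower (31%) of 29, DNA methylation genes 4 and 4 of 15 (26.7% each), and replication-dependent histone genes 3 (23.1%) and 0 of 13. Of 18 fibroblast genes 8 were tested, and 6 were lower (75%) and 0 higher, in every setting. In this and the other lists, a gene could pass the filter through the line in which it is high. Of 22 genes of endoderm and basement membrane, 13 were lower (59.1%) and 2 higher (9.09%). Of 23 genes of 2-cell-like cells, 1 was tested and it was not called.

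Against het, 3631 genes were higher in A677T (22.9%) and 3704 lower (23.4%), and 18.9% and 19.9% without replicate 3. Against the mean of R679C, K634E and K563E, 1266 were higher (8%) and 1150 lower (7.26%), and 5.82% and 4.94% without replicate 3. Among the genes above, A677T was lower than the 3 other variants for Foxd1 (-3.42), Vax2 (-2.49), Hmga2 (-1.43), Phlda2 (-1.46), Cldn6 (-1.09), Col4a1 (-1.07) and Grb10 (-0.77), and higher for Klhl13 (1.93), Irs2 (0.95) and Foxp1 (0.46), each past the test. For Vim (0.11, adjusted p = 0.167), Lin28b (0.10, adjusted p = 0.441), Mycn (0.07, adjusted p = 0.553) and Lama1 (-0.18, adjusted p = 0.0716) it did not pass. Irs2 averaged 21.1 CPM in A677T, and 11.1, 10.6 and 11.1 CPM in R679C, K634E and K563E.

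After brief differentiation with retinoic acid, the A677T and WT lines were sequenced again in separate libraries. There, 1419 of 17030 genes were higher in A677T (8.33%) and 1882 were lower (11.1%), and 0.628% and 3.25% by at least 2-fold. Of 15335 genes tested in both states, 1037 were at least 2-fold lower in undifferentiated cells and 397 after retinoic acid, and 267 were in both sets, 25.7% of the undifferentiated set and 67.3% of the other. For at least 2-fold higher genes the shared number was 28, 9.46% of 296 and 43.1% of 65. Klhl13 (1.99), Igf2bp2 (-1.57), Phlda2 (-1.45), Cldn6 (-1.64), Col4a1 (-1.63), Hmga2 (-1.08), H2-D1 (-1.45), Irs2 (0.80) and Nr5a2 (1.32) were called in the same direction there. Of the stress response genes, 10 of 29 were lower and 0 higher after retinoic acid, with a median of -0.26. Chac1 stood at 0.01 (adjusted p = 0.988) and Foxd1 at -0.38 (adjusted p = 0.756) after retinoic acid.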

How the data were processed

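Poly(A) RNA of undifferentiated mouse stem cells was sequenced. The submitters' processing notes name cutadapt 3.2, STAR 2.7.3a, featureCounts 1.6.4, the mm10 genome and DESeq2 1.38.3, without saying what each did. The authors deposited 1 table of raw counts per gene, not normalized. Its annotation release and whether strand was used are not stated in the labels. Columns that match no label (6) went unused, and libraries labelled Y728 were not analysed here. Symbols, positions and GC content came from GENCODE M21 (GRCm38), which holds 55141 of 55401 identifiers.

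One edgeR 4.0.16 fit (R 4.3.3, filterByExpr, TMM, robust quasi-likelihood test) took in the 24 undifferentiated libraries of 8 lines, with 16 residual degrees of freedom, so that all lines share an estimate of spread. The retinoic acid libraries had a fit of their own. P-values were adjusted by Benjamini-Hochberg across every gene of a fit, and 0.05 was the call threshold. The GC correction removed each library's lowess trend (span 0.3) of log2 level on transcript GC content. Alternatives were DESeq2 1.42.0, its size factors, limma 3.58.1 with library quality weights, no filter, the compared groups alone, a replicate block and leaving out each library.

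The 12 genes with the largest change in each direction were taken among those called with the same sign with all libraries, without A677T replicate 3 and with the GC correction, at a mean of at least 1 CPM in either line, with libraries that do not overlap and a symbol that is no predicted model. Up to 4 called members per list were added, and members of the PRC2 and pluripotency lists by role. Further list members named in the report were chosen after their values were seen. Comparisons, members, lists and this rule were chosen with earlier results of these data known, and the rule of at least a 2-fold change was added after the share of genes called was seen. On simulated counts for this comparison over 15830 genes, 46 of 100 genes changed 1.5-fold and 76 of 100 changed 2-fold were called, with 5 of 15630 unchanged genes. The simulated libraries had no GC trend and none was made to stand apart. These counts therefore do not give the share of false calls in the real libraries. The labels do not call the replicates separate cultures. The p-values thus measure the spread of these libraries, which may be technical. Intervals cover counting error only. A few list members and a sequence are not reported here.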

Additional observations from a re-analysis of the deposited data

Results flagged for a closer look

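For 5 of the 134 named genes, every A677T library lay on 1 side of every WT library in undifferentiated cells and on the opposite side after retinoic acid. The difference between the states was not tested, and the share of all genes that changed sides in this way was not counted. Rhox5 had a log2 fold change of 2.21 in undifferentiated cells and -0.25 after retinoic acid (adjusted p = 0.319). Hs6st2 had 2.10 and -0.55 (adjusted p = 0.0023). Rassf4 had -3.30 and 0.80 (adjusted p = 6.54e-05). Tal1, a regulator of blood formation, had -2.20 and 0.54. Irf1 had -0.53 and 0.24. Of 15335 genes tested in both states, 71 were called in both with opposite signs.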

How the results depend on the processing

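The number of genes called between A677T and WT was 7061, and 4763 to 8433 under the other tools, scalings, filters and sets of libraries. Leaving out 1 library at a time gave 5246 to 7696. The number at least 2-fold higher depended most on the settings: 312 became 189 with the GC correction, 193 with that and the replicate block, 130 with the correction and without A677T replicate 3, and 154 to 428 with 1 library left out, the lowest without A677T replicate 3 and the highest without A677T replicate 2. The number at least 2-fold lower (1120) ranged between 872 and 1276. Against the mean of R679C, K634E and K563E, 2416 genes became 1502 with the compared groups alone and 4852 with limma and library quality weights, and 1666 to 2949 with 1 library left out. The cause was not tested.

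The Ezh2 difference of 0.39 was 0.12 and not called with the GC correction without A677T replicate 3, and 0.28 to 0.43 with 1 library left out. Among 134 named genes, 110 kept sign and call with the GC correction, 19 lost the call, 2 gained it and 3 reversed. The reversed ones were Cdt1 (0.015, and 0.013 with the block), mt-Nd4 (-0.064, -0.062 with the block, -0.069 without A677T replicate 3) and mt-Cytb (-0.098, -0.096 and -0.152), and Dppa2 reversed (-0.052) with the correction and without that replicate. Without A677T replicate 3 alone, 124 kept sign and call and 10 lost the call. The 12 genes with the largest change in each direction had been chosen for keeping sign and call in these 2 settings. Their part in the kept counts was therefore fixed in advance. Of 960 list counts under an alternative, 99 moved by over 1.5 times.

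Equal replicate numbers did not pair the libraries (correlation of deviations -0.01, -0.16 and -0.19). With the replicate block, 7333 genes were called, and all 134 named genes kept sign and call. Depth limits the genes under about 1 CPM, where few counts stand behind a value.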
